A study of Mus musculus with 6 samples.

Results

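Cholesterol synthesis and its control by the sterol regulatory element-binding proteins (SREBPs) were followed in Neuro2a, a mouse neuroblastoma line. The 28 genes were taken by symbol from the deposited count table of 24421 genes: 7 enzymes that make farnesyl diphosphate from acetyl-CoA, 11 enzymes of the squalene and sterol steps, 5 genes of SREBP control, and 5 genes of sterol uptake, transport and efflux. All 28 were among the 12820 genes that passed the filter on low counts and were tested. They are listed by pathway role, and the list was made with earlier results of these data known. RNA from whole cultures was sequenced after adenovirus (ADV) delivery of a short hairpin against Fam172a (ADV-shFam172a, 3 samples) or of a control hairpin (ADV-shCtrl, 3 samples). Per the labels the line was WT in both groups, was grown with fetal bovine serum on collagen I, and was harvested 48 h after the virus was added. Both groups therefore carried an adenovirus and a hairpin, and cells without virus were not analysed here. The labels do not say whether the 3 samples of each group were infected separately. The p-values therefore set each group difference only against the spread among these samples, and that spread may be technical.

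Cells build cholesterol from acetyl-CoA through mevalonate, isoprenoid diphosphates, squalene and lanosterol, and the same route supplies isoprenoids for protein prenylation and coenzyme Q. SREBP2, made from Srebf2, is held in the endoplasmic reticulum by SCAP and the INSIG proteins while membrane sterol is high. When sterol falls, SCAP carries SREBP2 to the Golgi, where proteases release the part that switches on most enzymes of the pathway together with Insig1 and Stard4.

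Promoter windows from RefSeq on build GRCm38.p6 were read for the members, each running from 250 bases before a gene start to 50 bases from it on. Of the 28 genes, 23 matched, with 31 windows, while Fdps, Fdft1, Sqle, Stard4 and Npc1 had none. The windows of 4 genes are shown because these genes stood apart in the count data: Insig1 and Cyp51 were higher in ADV-shFam172a, Idi1 was lower, and Hmgcs1 lay at nearly the same level in both groups. Capitals mark CCAAT, the core letters bound by NF-Y, on either strand (ATTGG when read on the other one). They also mark TCACNCCAC, a form of the sterol regulatory element. The windows are chr5:28071162-28071461 on the plus strand for Insig1, chr5:4104648-4104947 on the minus strand for Cyp51, chr13:8885356-8885655 on the plus strand for Idi1 and chr13:119690101-119690400 on the plus strand for Hmgcs1.
Insig1: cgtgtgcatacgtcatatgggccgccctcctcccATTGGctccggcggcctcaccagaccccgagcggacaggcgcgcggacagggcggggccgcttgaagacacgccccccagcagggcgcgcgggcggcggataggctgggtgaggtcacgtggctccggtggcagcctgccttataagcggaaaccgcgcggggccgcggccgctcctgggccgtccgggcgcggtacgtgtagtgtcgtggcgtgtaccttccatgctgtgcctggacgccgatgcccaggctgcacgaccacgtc
Cyp51: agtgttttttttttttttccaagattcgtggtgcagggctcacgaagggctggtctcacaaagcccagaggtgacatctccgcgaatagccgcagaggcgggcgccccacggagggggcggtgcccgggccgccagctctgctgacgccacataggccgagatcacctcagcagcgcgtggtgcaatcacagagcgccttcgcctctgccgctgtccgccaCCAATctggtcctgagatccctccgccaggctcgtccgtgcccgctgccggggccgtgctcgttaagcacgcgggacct
Idi1: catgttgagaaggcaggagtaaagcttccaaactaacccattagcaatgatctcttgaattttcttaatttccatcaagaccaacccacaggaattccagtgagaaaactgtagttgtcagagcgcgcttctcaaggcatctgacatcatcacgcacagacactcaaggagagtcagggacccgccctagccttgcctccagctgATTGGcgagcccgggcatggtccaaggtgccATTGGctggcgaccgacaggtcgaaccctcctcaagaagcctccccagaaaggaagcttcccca
Hmgcs1: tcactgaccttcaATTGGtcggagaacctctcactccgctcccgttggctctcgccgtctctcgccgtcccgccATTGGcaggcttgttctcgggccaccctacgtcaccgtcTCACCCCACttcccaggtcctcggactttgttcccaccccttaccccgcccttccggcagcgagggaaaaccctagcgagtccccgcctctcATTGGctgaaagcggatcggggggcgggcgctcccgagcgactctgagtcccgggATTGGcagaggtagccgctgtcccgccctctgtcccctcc

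CCAAT was found on at least 1 strand in the windows of 20 of the 23 genes, 87% of them, against 41.1% of 27025 genes with a window in the same table. By window this was 21 of 31, against 37.4% of all 32851 windows. Idi1 held 2 copies and Hmgcs1 held 4, while Insig1 and Cyp51 each held 1. TCACNCCAC was found in 1 of the 31 windows, that of Hmgcs1, and in 1.24% of all windows. Its first base in Hmgcs1 lay at -137 from the start on the plus strand. Only these exact letters were searched for, so sterol regulatory elements spelled otherwise were not counted. The E-box letters CACGTG were found in 6 of the 23 genes (Insig1, Scap, Hsd17b7, Sc5d, Dhcr7 and Abca1) and in 8.09% of all genes. ACGTG, the core of a hypoxia response element, lies within CACGTG, and it was found in the same 6 genes and in 21.8% of all genes. Outside CACGTG it was found in 1 member window, that of Insig1, and in 13.6% of all windows. Insig2 had 3 windows, of which the one at chr1:121332540-121332839 held CCAAT 3 times and the others held none. Genes that were called and genes that were not both carried CCAAT, and a match of letters is a description of the window, not a measured binding site.

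Gene counts summed to between 21690467 and 23409319 in the ADV-shFam172a libraries and to between 11250312 and 12820531 in the ADV-shCtrl libraries, so depth went with the hairpin. Fam172a itself fell to 8.90 ± 0.543 CPM (counts scaled to library size), against 19.1 ± 0.469 CPM in ADV-shCtrl (SD, n = 3 each; log2 fold change -1.10 ± 0.092 SE, adjusted p = 2.44e-12). The ribosomal RNA precursor Rn45s stood at 985 ± 177 CPM in ADV-shFam172a and 492 ± 78.2 CPM in ADV-shCtrl (SD, n = 3 each; adjusted p = 0.0208). The summed level of 12 sympathoadrenal neuroblastoma markers ran from 2199.8 to 2241 CPM in ADV-shFam172a and from 2124 to 2143 CPM in ADV-shCtrl, with 5 of 11 tested markers higher and 1 lower, against 17.5% of all genes tested called higher and 18.6% called lower. Summed fibroblast markers ran from 4.72 to 6.22 CPM in ADV-shFam172a and from 6.11 to 6.78 CPM in ADV-shCtrl, with 0 of 3 tested markers called (1 at an unadjusted p under 0.05). Summed macrophage markers ran from 1.11 to 1.16 CPM in ADV-shFam172a and from 0.234 to 0.943 CPM in ADV-shCtrl, with Ptprc and Itgam at 0 in all 6 libraries. Cd68, the 1 macrophage marker that was tested, was higher, at 1.02 ± 0.107 CPM in ADV-shFam172a and 0.514 ± 0.249 CPM in ADV-shCtrl (adjusted p = 0.0482). Summed astrocyte and oligodendrocyte markers ran from 28.2 to 33.4 CPM in ADV-shFam172a and from 26.9 to 29.1 CPM in ADV-shCtrl, with Aqp4 at 0 in all 6 and 0 of 3 tested markers called (1 at an unadjusted p under 0.05). ADV-shFam172a replicate 3 stood apart within its group, with 4.46% of read pairs of too low alignment quality, against 6.65% and 7.12% in replicates 1 and 2. The ADV-shCtrl libraries had 4.83%, 5.14% and 5.83%. In RNA from whole cultures, fewer cells of a type and less RNA per cell cannot be told apart.

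Of the 28 sterol genes, 9 were higher and 3 were lower in ADV-shFam172a at an adjusted p under 0.05, and 16 did not pass. The adjusted p came from edgeR's quasi-likelihood test with Benjamini-Hochberg adjustment over all genes tested. The genes called higher were 32.1% of the list, against a background of 17.5% of all genes tested, and the genes called lower were 10.7%, against 18.6%. In either direction 12 of 28 were called, where the background was 36.1%. Among the 7973 tested genes within the members' range of mean level (18.1 to 587 CPM), 21.5% were called higher and 24.5% lower. Over the 28 genes the median log2 fold change was 0.026, against -0.00030 over all genes tested, and single genes ran from -0.25 to 0.30.

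Over the 28 genes the estimates ran from a change of -15.9% (Idi1) to one of 23.1% (Insig2). Tested against a minimum change of 1.2-fold with edgeR's glmTreat, 0 of the 28 were called, and 0 also had an unadjusted p under 0.05 in that test. Over all genes the same test called 2.39% higher and 1.06% lower. The median size of a log2 fold change was 0.079 in the list and 0.13 over all genes. The median level was higher in the list, at 125 CPM against 32.8 CPM over all genes tested. The 3 libraries of each group did not overlap for 10 genes in the higher direction and 3 in the lower one, where the background was 22.5% and 23.5% of all genes. Of these 13 genes, Srebf1 was the only one without a call.

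**Figure D1:**
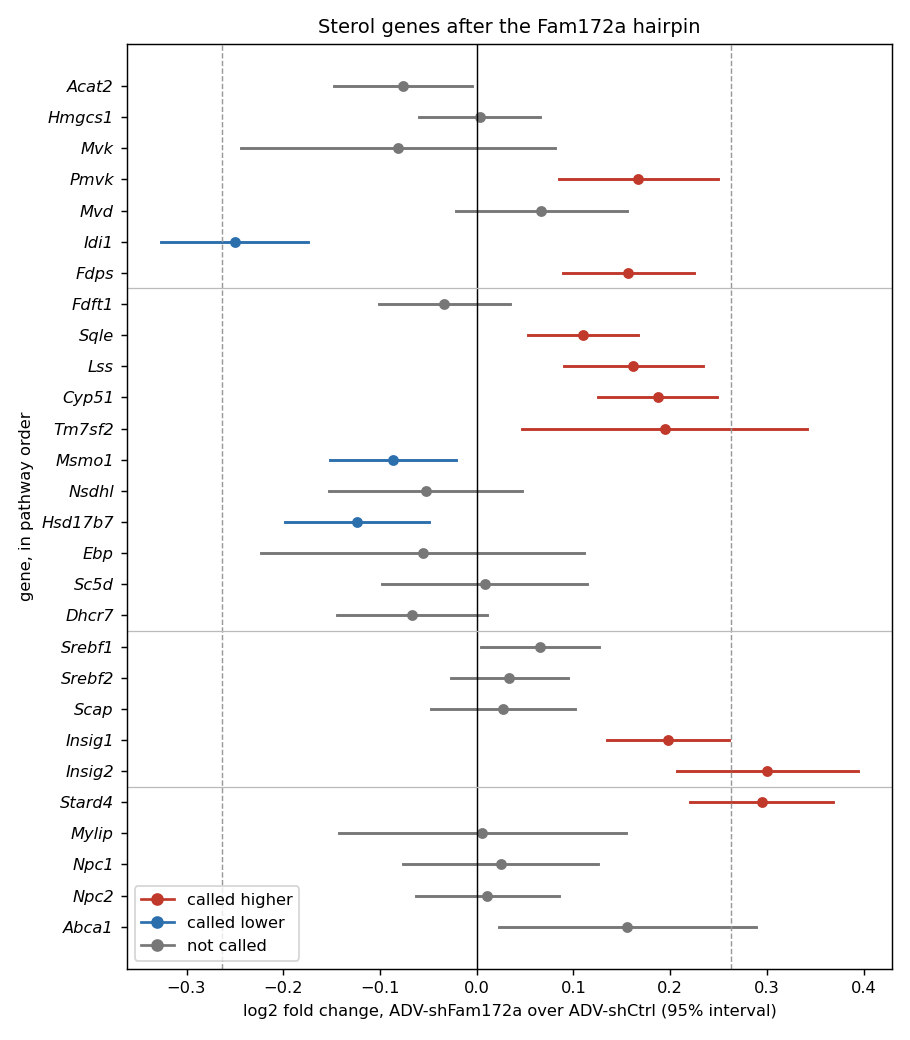
Log2 fold change of each of the 28 sterol genes (x axis, ADV-shFam172a over ADV-shCtrl) with its 95% interval as a bar, in pathway order down the page. Dashed lines mark a 1.2-fold change, grey lines part the 4 roles, and red and blue mark the 9 genes called higher and the 3 called lower. The largest estimates, those of Insig2 at 0.30 and Stard4 at 0.29, have intervals that cross the 1.2-fold line.

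**Figure D2:**
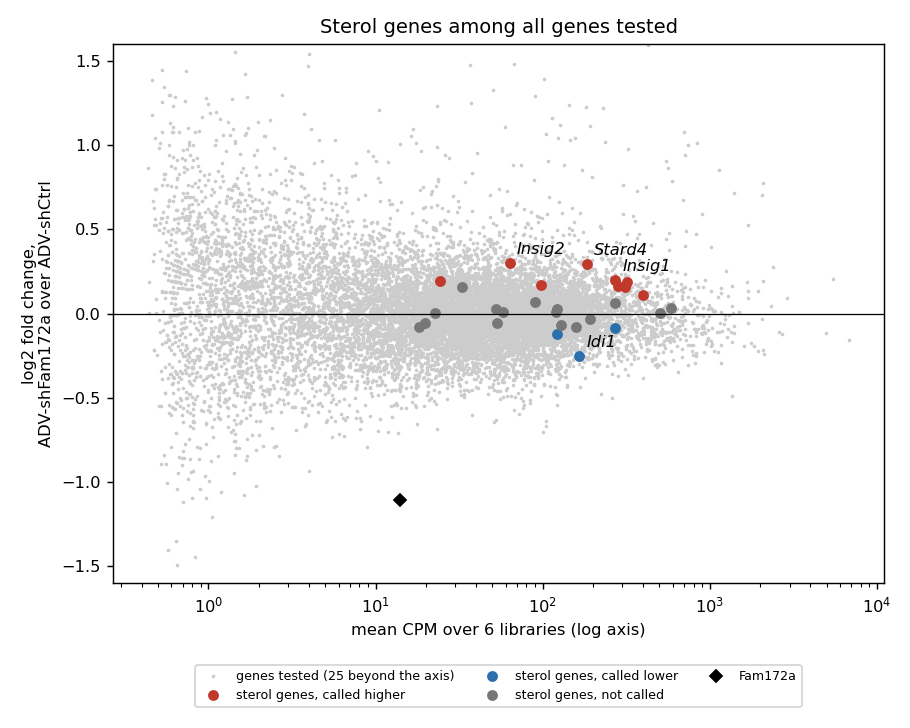
Log2 fold change (y axis, ADV-shFam172a over ADV-shCtrl) against mean CPM over 6 libraries (log x axis) for all genes tested, with the 28 sterol genes in colour and Fam172a as a black diamond. The sterol genes lie between -0.25 and 0.30 on the y axis, within the cloud of all genes.

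The summed level of the pathway overlapped between the groups. Together the 28 genes took 5201, 5010 and 4896 CPM in the ADV-shFam172a libraries, against 4967, 4749.9 and 4788 CPM in the ADV-shCtrl libraries. The same held for the 18 enzymes alone, at 3248 ± 114 CPM in ADV-shFam172a and 3168 ± 60.0 CPM in ADV-shCtrl (SD, n = 3 each). A principal component analysis of the 28 genes put the groups apart on its first axis, which held 67.3% of their variance. ADV-shFam172a replicate 3 lay nearest to ADV-shCtrl on it, at 0.197, against 0.451 and 0.428 for replicates 1 and 2, while the ADV-shCtrl libraries lay between -0.479 and -0.221.

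Levels differed far more between genes than between groups. Per kilobase of exon, Hmgcs1 was the most abundant member, at a mean of 109.5 CPM per kb in ADV-shFam172a and 109.3 CPM per kb in ADV-shCtrl. Insig1 followed at 93.5 CPM per kb in ADV-shFam172a and 81.6 CPM per kb in ADV-shCtrl. Srebf2 was next at 82.6 CPM per kb in ADV-shFam172a and 80.7 CPM per kb in ADV-shCtrl. The lowest levels per length were those of Abca1, at 3.36 CPM per kb in ADV-shFam172a and 3.02 CPM per kb in ADV-shCtrl, and of Npc1, at 4.71 CPM per kb in ADV-shFam172a and 4.62 CPM per kb in ADV-shCtrl. These lengths join all exons that the annotation gives a gene, so a gene with many long transcripts reads low on this scale.

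**Figure D3:**
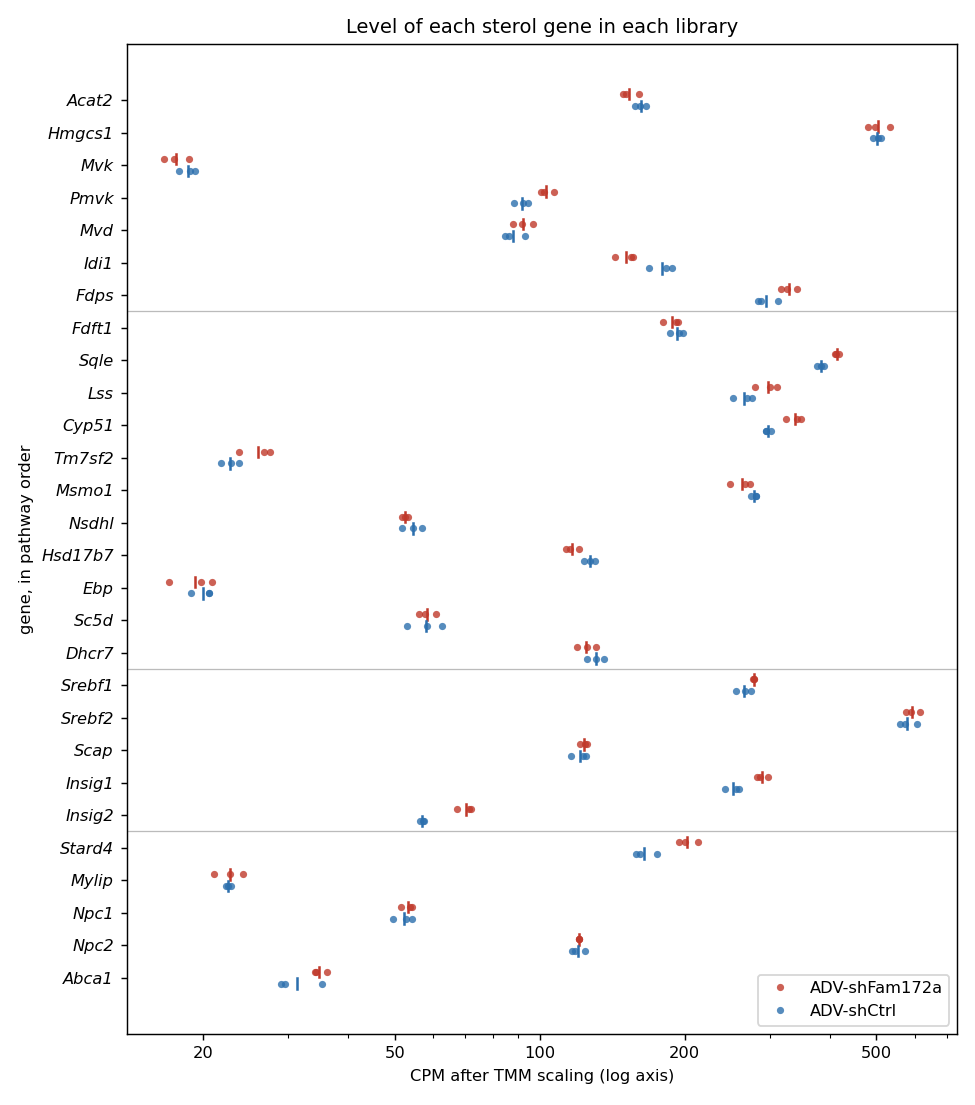
CPM after TMM scaling (log x axis) of each sterol gene in each of the 6 libraries, with ADV-shFam172a in red above ADV-shCtrl in blue and short vertical lines at the group means. CPM here is not divided by gene length, so it is read across groups within a gene. The groups part for Stard4, Insig2 and Idi1 and lie over each other for Hmgcs1, Srebf2 and Npc2.

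Among the 7 genes that lead from acetyl-CoA to farnesyl diphosphate, 2 were higher, 1 was lower and 4 did not pass. Their median log2 fold change was 0.0031. Idi1, the isomerase that interconverts the isoprenoid building blocks, was the member with the largest fall. It stood at 155, 143 and 156 CPM in the ADV-shFam172a libraries, against 183, 188 and 169 CPM in the ADV-shCtrl libraries. All 3 ADV-shFam172a libraries lay below all 3 ADV-shCtrl libraries, and the log2 fold change was -0.25 ± 0.037 (SE, adjusted p = 1.22e-06), a change of -15.9%. Its exons share 323 bases with Gm48574 on the other strand.

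Fdps makes farnesyl diphosphate from the products of that isomerase, and it went the other way. It stood at 343, 326 and 317 CPM in the ADV-shFam172a libraries, against 313, 288 and 283.5 CPM in ADV-shCtrl. The lowest ADV-shFam172a library was above the highest ADV-shCtrl library by a narrow margin, and the log2 fold change was 0.16 ± 0.033 (SE, adjusted p = 0.000265), a change of 11.5%. Fdps shares 1124 bases of exon with Gm43738 on the same strand, so its count is uncertain where the counting could split them. Pmvk, phosphomevalonate kinase, stood at 107, 102 and 100.4 CPM in ADV-shFam172a, against 92.5, 94.6 and 88.4 CPM in ADV-shCtrl. The groups did not overlap, and Pmvk rose by 12.3% (log2 fold change 0.17 ± 0.040 SE, adjusted p = 0.00115).

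The other 4 genes of this arm did not pass. Hmgcs1, which makes HMG-CoA and is a classical SREBP2 target, averaged 503 ± 27.1 CPM in ADV-shFam172a and 502 ± 10.1 CPM in ADV-shCtrl (SD, n = 3 each). Its log2 fold change was 0.0031 with a 95% interval from -0.060 to 0.066, so a difference beyond 4.67% in either direction lay outside the interval. Exons of Hmgcs1 share 557 bases with Gm48342 on the other strand. Acat2, the cytosolic thiolase that opens the pathway, averaged 154 ± 6.58 CPM in ADV-shFam172a and 162 ± 4.05 CPM in ADV-shCtrl (log2 fold change -0.077, adjusted p = 0.0868). Without ADV-shFam172a replicate 1 it passed, at -0.11 (adjusted p = 0.0199), and in the other 15 alternatives it did not, with -0.032 under offsets for length and GC content (adjusted p = 0.493). Its paralog Acat3 stood at 1.04 CPM in ADV-shFam172a and 1.42 CPM in ADV-shCtrl, and how reads that match both genes were counted was not tested, so the value of Acat2 is uncertain. Mevalonate kinase, Mvk, averaged 17.6 ± 1.05 CPM in ADV-shFam172a and 18.6 ± 0.737 CPM in ADV-shCtrl (adjusted p = 0.459). Mvd, the decarboxylase that yields isopentenyl diphosphate, averaged 92.2 ± 4.43 CPM in ADV-shFam172a and 88.1 ± 4.52 CPM in ADV-shCtrl (adjusted p = 0.243).

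**Figure D4:**
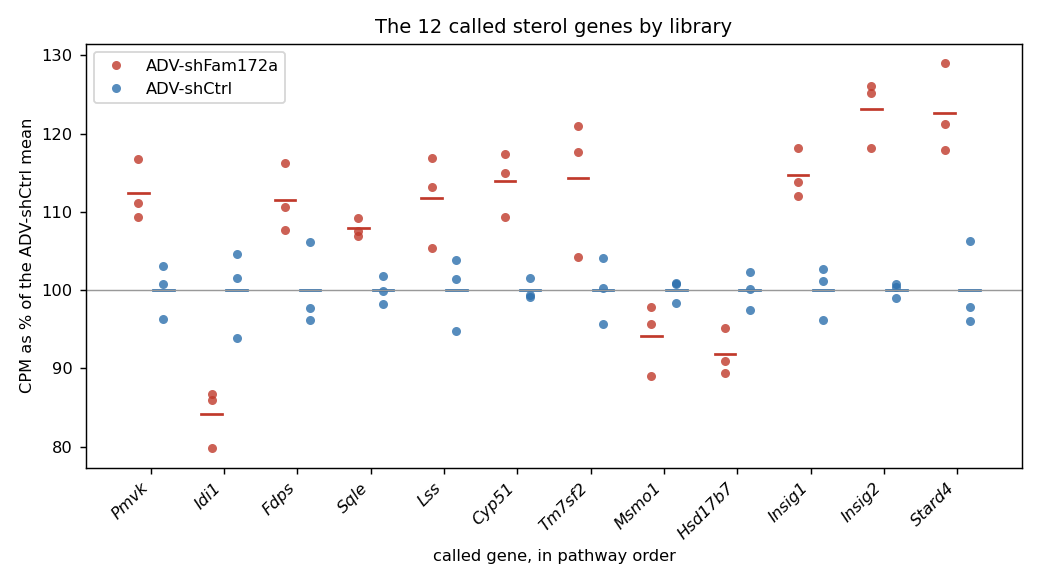
CPM of the 12 called sterol genes in each library as a percentage of that gene's ADV-shCtrl mean (y axis), in pathway order, with horizontal lines at the group means. ADV-shFam172a libraries are in red, left of the ADV-shCtrl libraries in blue. Idi1, Msmo1 and Hsd17b7 lie below the grey line of the ADV-shCtrl mean and the other 9 above it, with Tm7sf2 the gene whose groups come closest.

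The 11 genes of the squalene and sterol steps held 4 that were higher, 2 that were lower and 5 that did not pass. The median log2 fold change over them was -0.033. The risers sat next to each other along the pathway. Sqle, the squalene epoxidase that controls flux into sterols, stood at 418, 412 and 409.7 CPM in the ADV-shFam172a libraries, against 389.9, 376 and 383 CPM in the ADV-shCtrl libraries. The groups did not overlap, and the log2 fold change was 0.11 ± 0.028 (SE, adjusted p = 0.0019), a change of 7.91%. Lss, which closes the rings to give lanosterol, stood at 311, 301 and 280.4 CPM in ADV-shFam172a, against 269.7, 252 and 276 CPM in ADV-shCtrl. Its ADV-shFam172a replicate 3 was only just above the highest ADV-shCtrl library, and the log2 fold change was 0.16 ± 0.035 (SE, adjusted p = 0.000405).

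Cyp51, the demethylase that acts on lanosterol, stood at 349, 342 and 325 CPM in ADV-shFam172a, against 295, 302 and 295 CPM in ADV-shCtrl. Every ADV-shFam172a library was above every ADV-shCtrl library, and Cyp51 rose by 13.9% (log2 fold change 0.19 ± 0.030 SE, adjusted p = 4.83e-06). Tm7sf2, a sterol reductase that follows it, was low, at 26.8, 27.6 and 23.8 CPM in ADV-shFam172a, against 23.7, 21.8 and 22.9 CPM in ADV-shCtrl. The groups barely parted, and the log2 fold change was 0.19 ± 0.073 (SE, adjusted p = 0.0333). That call was lost without ADV-shFam172a replicate 1 (0.18, adjusted p = 0.0843), ADV-shFam172a replicate 2 (0.15, adjusted p = 0.146), ADV-shCtrl replicate 2 (0.16, adjusted p = 0.16) or ADV-shCtrl replicate 3 (0.20, adjusted p = 0.0708). It was also lost with DESeq2 (adjusted p = 0.0995) and after thinning (adjusted p = 0.0848), and it held in 10 of 16 alternatives. Exons of Tm7sf2 share 532 bases with Vps51 on the same strand, those of Lss 381 bases with 4930483K19Rik and those of Cyp51 166 bases with Akap9, both on the other strand.

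Both genes that fell here act after lanosterol has lost its first methyl group. Hsd17b7, a ketosterol reductase, stood at 121, 114 and 115 CPM in ADV-shFam172a, against 129.98, 127 and 124 CPM in ADV-shCtrl. The groups did not overlap, and the log2 fold change was -0.12 ± 0.037 (SE, adjusted p = 0.00762), a change of -8.21%, which missed the threshold without ADV-shFam172a replicate 2 (-0.10, adjusted p = 0.0578). Msmo1, the methylsterol monooxygenase, stood at 273, 267 and 248 CPM in ADV-shFam172a, against 281, 274 and 281 CPM in ADV-shCtrl. The low value of ADV-shFam172a replicate 3 weighed on its log2 fold change, which was -0.086 ± 0.032 with all libraries (SE, adjusted p = 0.0328) and -0.047 without that library (adjusted p = 0.261). The call on Msmo1 was also lost without ADV-shCtrl replicate 1 (-0.079, adjusted p = 0.0823) or ADV-shCtrl replicate 3 (-0.079, adjusted p = 0.113), under upper quartile scaling (-0.072, adjusted p = 0.0761), with DESeq2 (-0.084, adjusted p = 0.0867) and with offsets for length and GC content (-0.066, adjusted p = 0.0946; with the replicate block added, -0.067, adjusted p = 0.0728). It held in 9 of 16 alternatives.

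The remaining 5 sterol enzymes overlapped between groups. Squalene synthase, Fdft1, averaged 188 ± 7.04 CPM in ADV-shFam172a and 193 ± 5.83 CPM in ADV-shCtrl (adjusted p = 0.466). Nsdhl, a sterol dehydrogenase, averaged 52.5 ± 0.640 CPM in ADV-shFam172a and 54.5 ± 2.64 CPM in ADV-shCtrl (adjusted p = 0.429). The sterol isomerase Ebp averaged 19.3 ± 2.002 CPM in ADV-shFam172a and 20.02 ± 0.945 CPM in ADV-shCtrl (adjusted p = 0.637). These 3 genes had log2 fold changes between -0.056 and -0.033. The desaturase Sc5d averaged 58.3 ± 2.41 CPM in ADV-shFam172a and 58.0 ± 4.87 CPM in ADV-shCtrl (adjusted p = 0.92). Dhcr7, the reductase of the last step, averaged 125 ± 5.57 CPM in ADV-shFam172a and 131 ± 5.31 CPM in ADV-shCtrl (log2 fold change -0.067 with a 95% interval from -0.14 to 0.011, adjusted p = 0.176).

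Among the 5 genes of SREBP control, both INSIG genes were higher and the other 3 did not pass. Insig2, which anchors SCAP in the endoplasmic reticulum and is not a classical SREBP target, stood at 71.3, 71.8 and 67.3 CPM in the ADV-shFam172a libraries, against 57.2, 56.4 and 57.4 CPM in the ADV-shCtrl libraries. The ADV-shCtrl values were tightly bunched and every ADV-shFam172a value lay above them. The log2 fold change was 0.30 ± 0.046 (SE, adjusted p = 2.03e-06), a change of 23.1% with a 95% interval from 15.4% to 31.4%. Insig1, its paralog and a target of SREBP2, stood at 298, 287 and 283 CPM in ADV-shFam172a, against 259, 243 and 255 CPM in ADV-shCtrl. The groups did not overlap, and the log2 fold change was 0.20 ± 0.031 (SE, adjusted p = 3.11e-06), a change of 14.7%.

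The SREBP genes and their escort did not pass. Srebf2 averaged 593 ± 19.7 CPM in ADV-shFam172a and 579.7 ± 23.1 CPM in ADV-shCtrl (log2 fold change 0.034, 95% interval -0.026 to 0.094, adjusted p = 0.398). Scap averaged 123 ± 2.16 CPM in ADV-shFam172a and 121 ± 4.66 CPM in ADV-shCtrl (log2 fold change 0.027, adjusted p = 0.607). Srebf1, whose products act more on fatty acid genes, stood at 279, 277 and 278 CPM in ADV-shFam172a, against 275, 256 and 266 CPM in ADV-shCtrl. Its groups did not overlap, although ADV-shCtrl replicate 1 came close, and the log2 fold change was 0.066 ± 0.030 (SE, adjusted p = 0.0884). Without ADV-shCtrl replicate 1 it was 0.091 (adjusted p = 0.0287), and under upper quartile scaling 0.080 (adjusted p = 0.0367). With offsets for length and GC content it was 0.002 (adjusted p = 0.958), without ADV-shCtrl replicate 2 it was 0.039 (adjusted p = 0.41), and in the other alternatives it did not pass.

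Stard4 had the smallest adjusted p of the 28. It encodes a cytosolic carrier that moves sterol between membranes, and it is a target of SREBP2. It stood at 213, 199.8 and 194 CPM in the ADV-shFam172a libraries, against 175, 161 and 158 CPM in the ADV-shCtrl libraries. The lowest ADV-shFam172a library was well above the highest ADV-shCtrl library, and the log2 fold change was 0.29 ± 0.037 (SE, adjusted p = 3.44e-08), a change of 22.7% with a 95% interval from 16.5% to 29.1%. Of the 5 genes of uptake, transport and efflux it was the only one called.

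Npc1 and Npc2, which hand sterol out of late endosomes and lysosomes, did not pass. Npc1 averaged 53.3 ± 1.47 CPM in ADV-shFam172a and 52.3 ± 2.35 CPM in ADV-shCtrl (adjusted p = 0.735), and Npc2 averaged 121 ± 0.214 CPM in ADV-shFam172a and 119.8 ± 4.06 CPM in ADV-shCtrl (adjusted p = 0.843). Mylip, a ubiquitin ligase of lipoprotein receptors that is induced by the sterol-sensing LXR receptors, averaged 22.7 ± 1.57 CPM in ADV-shFam172a and 22.6 ± 0.305 CPM in ADV-shCtrl (adjusted p = 0.961). Abca1, the sterol exporter and another LXR target, stood at 34.1, 34.4 and 36.1 CPM in ADV-shFam172a, against 35.4, 29.0 and 29.6 CPM in ADV-shCtrl. ADV-shCtrl replicate 1 lay among the ADV-shFam172a values and the other 2 ADV-shCtrl libraries below them. The log2 fold change of Abca1 was 0.16 ± 0.066 (SE, adjusted p = 0.0611), and it was 0.25 without ADV-shCtrl replicate 1 (adjusted p = 0.00384). It also passed under upper quartile scaling (0.17, adjusted p = 0.0388) and without a filter on low counts (0.16, adjusted p = 0.0462). In the other 13 of 16 alternatives it did not pass, and the lowest values were 0.10 without ADV-shCtrl replicate 2 (adjusted p = 0.346), 0.12 without ADV-shCtrl replicate 3 (adjusted p = 0.231) and 0.12 after thinning to the ADV-shCtrl depth (adjusted p = 0.194).

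Ratios of counts within a library do not depend on the scaling between libraries. They were formed after the values had been seen, as a description with no test. Fdps counts over Idi1 counts were 2.22, 2.28 and 2.04 in the ADV-shFam172a libraries, against 1.71, 1.53 and 1.68 in the ADV-shCtrl libraries, with no overlap. Cyp51 over Msmo1 was 1.28, 1.28 and 1.31 in ADV-shFam172a, against 1.05, 1.10 and 1.05 in ADV-shCtrl. Sqle over Hsd17b7 averaged 3.54 ± 0.0824 in ADV-shFam172a and 3.02 ± 0.0681 in ADV-shCtrl (SD, n = 3 each), again with no overlap. Each of these 3 ratios sets a gene called higher over a gene called lower, so their lack of overlap follows from that choice. Insig1 over Insig2 was 4.18, 3.998 and 4.20 in ADV-shFam172a, against 4.53, 4.30 and 4.44 in ADV-shCtrl, also without overlap. Srebf2 over Srebf1 overlapped, at 2.21, 2.13 and 2.07 in ADV-shFam172a, against 2.20, 2.19 and 2.15 in ADV-shCtrl.

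Depth, which went with the hairpin, was levelled by thinning, and in a separate fit ADV-shFam172a replicate 3 was left out. Thinning evens only the number of counts. Any other difference between libraries that went with depth stays in the thinned counts and cannot be told apart from the hairpin. With the ADV-shFam172a counts thinned to the mean ADV-shCtrl depth, 8 of the 28 genes were higher and 3 lower, and the one lost was Tm7sf2 (adjusted p = 0.0848). Without ADV-shFam172a replicate 3, 9 were higher and 2 lower, and the one lost was Msmo1. Pmvk, Idi1, Fdps, Sqle, Lss, Cyp51, Insig1, Insig2 and Stard4 were called in all 16 alternatives, 6 of which left out a library. The part of Rn45s and of the neuroblastoma markers in these differences was not tested.

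Genes that act on the pathway's proteins after transcription were followed next. Of 14 genes of SREBP processing and sterol-regulated degradation, 6 were higher, 0 were lower and 8 did not pass. These are 42.9% higher and 0% lower, against 17.5% and 18.6% over all genes tested. The median log2 fold change of this list was 0.090. In the lower direction 0 of its genes had an unadjusted p under 0.05 in edgeR, and DESeq2 and limma called 0. Without ADV-shCtrl replicate 2, 3 were higher and 0 lower, without ADV-shCtrl replicate 3 the counts were 4 and 1, and without ADV-shFam172a replicate 3 they were 5 and 1. Rnf145, a ubiquitin ligase of the endoplasmic reticulum that acts in sterol control, averaged 121 ± 4.30 CPM in ADV-shFam172a and 99.4 ± 5.57 CPM in ADV-shCtrl (log2 fold change 0.29 ± 0.041 SE, adjusted p = 4.91e-07). Erlin2, which binds the SREBP complex in that membrane, averaged 131 ± 4.89 CPM in ADV-shFam172a and 114 ± 5.99 CPM in ADV-shCtrl (0.20 ± 0.039 SE, adjusted p = 7.12e-05). Marchf6, listed in the table under its older symbol March6, encodes the ligase that marks squalene epoxidase for breakdown. It averaged 298 ± 4.19 CPM in ADV-shFam172a and 271 ± 10.7 CPM in ADV-shCtrl (0.13 ± 0.031 SE, adjusted p = 0.000584). The lowest log2 fold change of the list was -0.086, that of Mbtps2, the second protease that cuts SREBPs (adjusted p = 0.159).

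The isoprenoid branch, which takes diphosphates away from sterol synthesis, held called genes in both directions. Of its 15 genes 3 were higher, 5 were lower and 7 did not pass, the median log2 fold change being -0.079. The share called higher was 20%, near the 17.5% over all genes tested, and the share called lower was 33.3%, against 18.6%. Fntb, the beta subunit of protein farnesyltransferase, averaged 26.1 ± 1.55 CPM in ADV-shFam172a and 16.9 ± 0.837 CPM in ADV-shCtrl. At 0.63 ± 0.076 on the log2 scale (SE, adjusted p = 1.79e-08), it was the only gene of the branch past 1.2-fold. Fntb shares exon sequence with Churc1 on the same strand. The gene of the alpha subunit, Fnta, was lower, at 124 ± 1.17 CPM in ADV-shFam172a and 133 ± 3.39 CPM in ADV-shCtrl (-0.11 ± 0.035 SE, adjusted p = 0.0165). Pdss2, a subunit of the synthase for the coenzyme Q side chain, averaged 13.3 ± 0.501 CPM in ADV-shFam172a and 17.5 ± 1.18 CPM in ADV-shCtrl (-0.40 ± 0.087 SE, adjusted p = 0.000362). Rabggtb, a subunit of the enzyme that prenylates Rab proteins, averaged 139.6 ± 3.85 CPM in ADV-shFam172a and 156 ± 5.76 CPM in ADV-shCtrl (-0.16 ± 0.035 SE, adjusted p = 0.00032). With offsets for length and GC content Rabggtb was at -0.088 (adjusted p = 0.0339). Its exons share 151 bases with Snord45b and Snord45c on the same strand. Zmpste24, a protease that trims prenylated proteins, fell to 55.0 ± 2.37 CPM, against 61.8 ± 1.56 CPM in ADV-shCtrl (adjusted p = 0.00508).

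The other risers of the branch were less steady. The branch held 1 higher gene without ADV-shFam172a replicate 2 or without ADV-shCtrl replicate 3, and 2 higher genes in the fits without ADV-shFam172a replicate 1, ADV-shFam172a replicate 3 or ADV-shCtrl replicate 1. Icmt, which methylates prenylated proteins, had a log2 fold change of 0.10 (adjusted p = 0.0225), and missed the threshold without ADV-shFam172a replicate 2 (0.093, adjusted p = 0.0762) or ADV-shCtrl replicate 3 (0.075, adjusted p = 0.159). Pggt1b, a subunit of an enzyme that adds geranylgeranyl groups, had 0.16 (adjusted p = 0.0434). It kept its call in 1 of the 6 fits that left out a library, the one without ADV-shCtrl replicate 2 (0.24, adjusted p = 0.0101). After thinning it was at 0.10 (adjusted p = 0.277). In the other fits that left out a library its log2 fold change was 0.16 without ADV-shFam172a replicate 1, 0.16 without replicate 2, 0.17 without replicate 3, 0.15 without ADV-shCtrl replicate 1 and 0.10 without ADV-shCtrl replicate 3.

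Intracellular sterol transport held 18 tested genes of 19, of which 2 were higher, 3 were lower and 13 did not pass, the median log2 fold change being -0.015. Its shares of 11.1% higher and 16.7% lower were below the 17.5% and 18.6% over all genes tested. Gramd1a, which carries sterol from the plasma membrane to the endoplasmic reticulum, averaged 149 ± 2.40 CPM in ADV-shFam172a and 124 ± 2.06 CPM in ADV-shCtrl (0.26 ± 0.035 SE, adjusted p = 1.21e-07). Vapb, a tether at membrane contact sites, averaged 156 ± 1.85 CPM in ADV-shFam172a and 144 ± 3.75 CPM in ADV-shCtrl (adjusted p = 0.00419). Osbpl9, an oxysterol-binding protein relative, averaged 62.8 ± 2.57 CPM in ADV-shFam172a and 71.0 ± 1.81 CPM in ADV-shCtrl (-0.17 ± 0.046 SE, adjusted p = 0.00246). Scp2, a sterol carrier of peroxisomes and cytosol, had a log2 fold change of -0.21 (adjusted p = 0.0038). Osbpl1a, of the same family as Osbpl9, had -0.24 (adjusted p = 0.00677), and -0.19 without ADV-shCtrl replicate 3 (adjusted p = 0.0686). Osbp2 was under the filter on low counts.

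Sterol sensing by LXR, efflux and oxysterols held 7 tested genes of 11, of which 1 was higher and 2 were lower, or 1 lower in each fit that left out a library other than ADV-shFam172a replicate 1. That is 14.3% higher and 28.6% lower, against 17.5% and 18.6% over all genes tested. Nr1h2, the LXR form found in most tissues, averaged 40.7 ± 2.20 CPM in ADV-shFam172a and 35.1 ± 1.89 CPM in ADV-shCtrl (0.21 ± 0.059 SE, adjusted p = 0.00398). Lpcat3, a phospholipid acyltransferase and LXR target, averaged 60.1 ± 2.26 CPM in ADV-shFam172a and 67.4 ± 1.76 CPM in ADV-shCtrl (-0.17 ± 0.046 SE, adjusted p = 0.0045). Abcg4, a sterol exporter of neural cells, was low, at 4.66 ± 0.560 CPM in ADV-shFam172a and 6.06 ± 0.160 CPM in ADV-shCtrl. Its call (-0.38, adjusted p = 0.0377) held without ADV-shFam172a replicate 1 (-0.47, adjusted p = 0.0208) and was lost in the other 5 fits that left out a library, where the log2 fold change ran from -0.40 without ADV-shCtrl replicate 1 to -0.30 without ADV-shFam172a replicate 2. Abcg1, Ch25h, Cyp27a1 and Cyp7b1 were under the filter on low counts.

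The list of lipoprotein receptors and related genes held 5 tested genes of 6, of which 2 were higher and 0 lower. These are 40% higher and 0% lower, against 17.5% and 18.6% over all genes tested. In the lower direction 0 had an unadjusted p under 0.05 in edgeR, and DESeq2 and limma called 0. Scarb2 is a receptor of the lysosomal membrane and is counted here though it is not a lipoprotein receptor. It averaged 215 ± 4.43 CPM in ADV-shFam172a and 192 ± 5.85 CPM in ADV-shCtrl (0.17 ± 0.032 SE, adjusted p = 5.14e-05). Lrp1, a large endocytic receptor, averaged 69.9 ± 1.55 CPM in ADV-shFam172a and 62.8 ± 3.26 CPM in ADV-shCtrl (0.16 ± 0.046 SE, adjusted p = 0.00666). With offsets for length and GC content Lrp1 stood at 0.007 (adjusted p = 0.923), and without ADV-shCtrl replicate 2 at 0.12 (adjusted p = 0.0932). Vldlr was under the filter on low counts, at 0.327 CPM in ADV-shFam172a and 0.280 CPM in ADV-shCtrl.

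**Figure D5:**
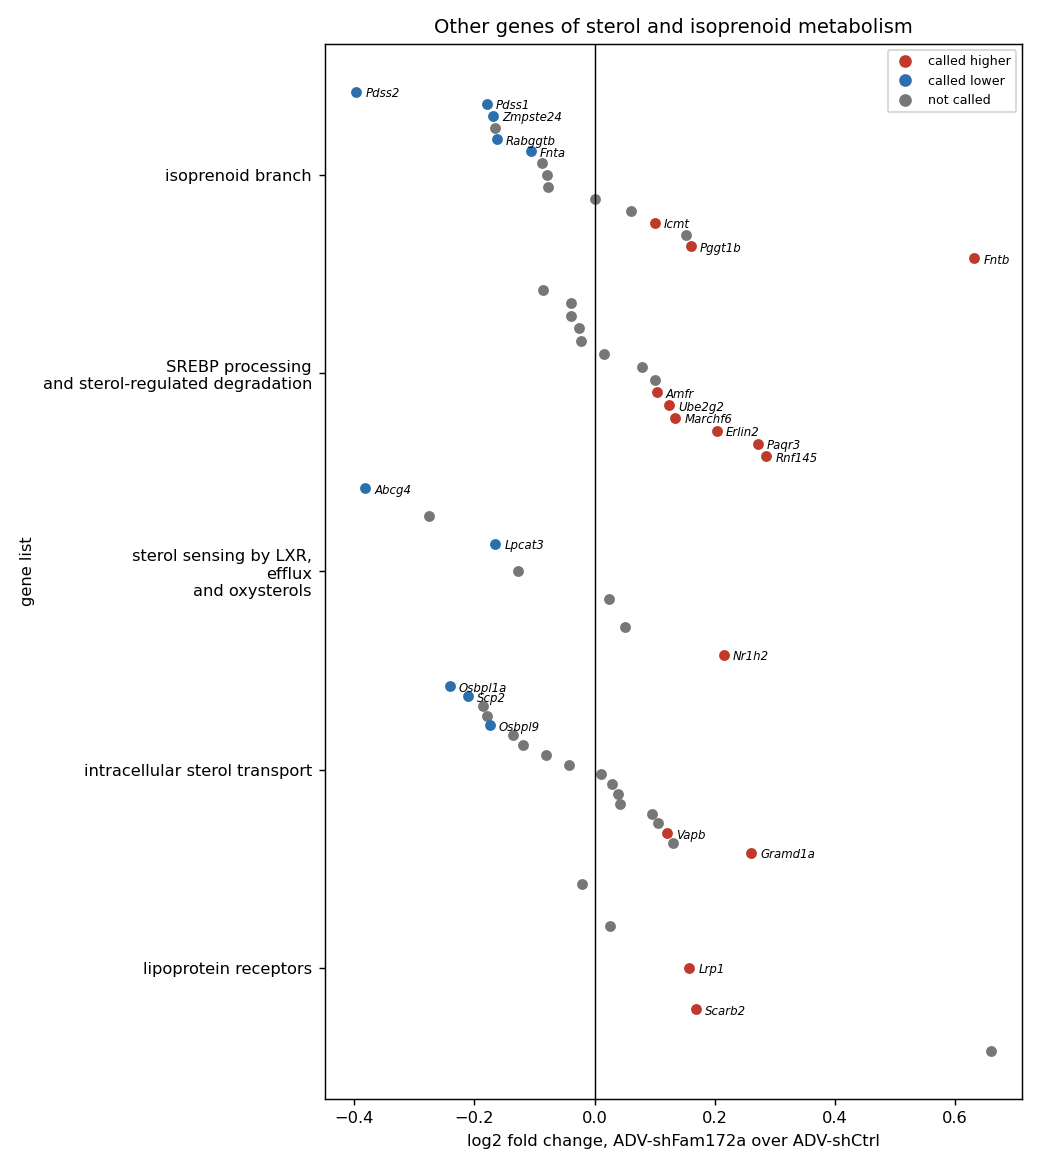
Log2 fold change (x axis, ADV-shFam172a over ADV-shCtrl) of each tested gene of 5 further lists (y axis), with genes called higher in red, called lower in blue and not called in grey. Called genes lie on both sides of 0 in the isoprenoid, LXR and transport lists, and to the right of it in the other 2.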

How the data were processed

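RNA was sequenced from 6 Neuro2a samples, 3 per group. The authors deposited raw read counts per gene symbol, without normalization. Per the submitters' processing notes, HISAT2 2.0.5, HTSeq and mm10 were used. For the annotation and the strand setting, a statement is not given in the sources used here. Series table and single-sample tables were compared, and the series table held the same counts as the single-sample tables. The 5 rows that name no gene entered neither library sizes nor tests; pairs in no gene made up 16.4% to 17.9% of a library, pairs with several alignments 9.58% to 10.4%, pairs of too low alignment quality 4.46% to 7.12%, ambiguous pairs 1.74% to 1.87% and pairs not aligned 0.722% to 1.1%.

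After filterByExpr and TMM scaling, the quasi-likelihood test of edgeR 4.0.16 (R 4.3.3) was run over all 6 libraries, with Benjamini-Hochberg adjustment over 12820 genes and calls at 0.05. A second call rule tested against 1.2-fold with glmTreat. CPM, group means, SD and CPM per kb of exon (GENCODE lengths, GRCm38) were computed from the counts. Counts of 11250312 to 23409319 per library set the precision. Fits with limma 3.58.1 (voom) and DESeq2 1.42.0, other scalings, filters and offsets, thinning, a replicate block and leaving out each library served as alternatives. The test was checked on simulated data.

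The 28 genes, the further lists and the tests were chosen with earlier results of these data known. All 28 are named. Of each further list, at most 3 called genes in each direction were picked by the smallest adjusted p. Fnta was named as the partner of Fntb, and Mbtps2 and genes under the filter were named besides. Exon overlaps were read from the GENCODE annotation, and other copies of a gene were not searched for. Among the 28 genes, overlaps were also found for some without a call. These were Hmgcs1 (557 bases), Fdft1 (774 bases, with Ctsb), Srebf1 (175 bases), Scap (985 bases) and Npc1 (601 bases). With the strand setting not given, their counts are uncertain to that extent too. For the further lists, overlaps are given for Fntb and Rabggtb only.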

Additional observations from a re-analysis of the deposited data

How the results depend on the processing

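Across the 16 alternatives, 8 to 11 of the 28 genes were higher and 2 to 4 lower, genes called among all tested ranged from 3561 with DESeq2 to 4657 with upper quartile scaling, and 0 of the 28 passed 1.2-fold in the 14 alternatives fitted with edgeR. Fam172a stayed between -1.13 and -1.05. The replicate block called the same 12 sterol genes (9 higher, 3 lower) and 4468 genes in all; the replicate numbers were not taken as pairs, since same-numbered libraries' deviations correlated at -0.0054, -0.0038 and -0.0096. Several genes without a call, all near 0, changed sign, and the cause was not tested. With offsets for length and GC content Nsdhl was at 0.012, Srebf2 at -0.040, Scap at -0.065 and Npc1 at -0.002, while Srebf1 came to 0.002, and with the replicate block added they were at 0.012, -0.040, -0.065 and -0.002. After thinning Mylip was at -0.007. Leaving out each library in turn, Hmgcs1 ran from -0.039 to 0.035, Sc5d from -0.056 to 0.069, Ebp from -0.119 to 0.029, Mylip from -0.043 to 0.059, Scap from -0.004 to 0.051, Npc2 from -0.007 to 0.040 and Npc1 from -0.008 to 0.054. In the further lists, SREBP processing ran from 3 to 7 genes higher and 0 to 1 lower. The isoprenoid branch ran from 1 to 3 higher and 3 to 6 lower. Transport ran from 2 to 4 higher and 2 to 4 lower, and LXR had 1 higher and 1 to 2 lower. The list of lipoprotein receptors and related genes, which includes Scarb2, ran from 1 to 2 higher. ADV-shCtrl had the shallower libraries, which limits the precision for low genes such as Tm7sf2, Mvk and Ebp.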
